A study of Mus musculus with 14 samples.

Results

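Hox genes were followed through mouse intestinal organoids as a family, taking every symbol made of Hox, a cluster letter from a to d and a number in the 4 bulk and 4 single-cell count files. RefSeq lists 39 such genes in the mouse, and 38 of them were listed in at least 1 file, with Hoxc11 in none. The bulk files held 29 of them among 27399 genes. The single-cell matrices listed 37 of them among 20063 genes after Isx-9, 19 among 17527 after DMSO, 20 among 17496 in untreated reporter organoids and 20 among 17610 in wild type. On GRCm38.p6, the A cluster of 11 genes spans chr6:52155367-52260880, the B cluster of 10 genes chr11:96194316-96368254, the C cluster of 9 genes chr15:102921131-103036856 and the D cluster of 9 genes chr2:74668225-74765142.

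Hox genes encode homeodomain transcription factors that give the parts of the body their position along the head-to-tail axis. Within a cluster the order of the genes matches the order in which they are used along that axis, so that low paralogue numbers mark anterior and high numbers posterior tissue. In the gut, nested Hox domains are laid down in the embryo, and the adult epithelium keeps part of that code. Here paralogue groups 1 to 3 are called anterior, 4 to 8 central and 9 to 13 posterior. Hox proteins bind DNA together with the TALE homeodomain proteins of the Pbx, Meis and Pknox families, and their genes respond to retinoic acid, Cdx factors, Gdf11 and Polycomb proteins.

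Intestinal organoids are cultures of gut epithelium that grow from stem cells, here in medium with EGF, Noggin and R-spondin1. The single-cell libraries, 1 for each group, came from Chgb-mCherry knock-in organoids after 6 days of 25 µM Isx-9, organoids of that genotype after 6 days of 0.05% DMSO or untreated, and untreated Wildtype organoids. Chgb encodes a granule protein of enteroendocrine cells, the hormone cells of the gut, and Isx-9 is a small molecule whose effect on these cells the study addressed. The bulk libraries, 2 for each treatment, came from the stem cells of organoids with an Lgr5-EGFP knock-in, sorted after 6 hours of 25 µM Isx-9 or of 0.05% DMSO. Lgr5, which marks these stem cells, had 312 and 320 CPM (counts per 1000000 counts of the library) after Isx-9 and 378 and 341 CPM after DMSO. The labels do not name the stretch of intestine, the sex or the strain of any line, nor whether a line is 1 clone.

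A cell was kept if it had 500 genes or more, 1000 UMIs or more and a mitochondrial share of no more than 20%. A UMI is a tag on 1 captured RNA molecule. Since only the 3′ end of each is read, levels in single cells do not grow with gene length. They are given as CPM too, here UMIs per 1000000 UMIs of all genes in the library or cell cluster. Some Hox genes overlap in RefSeq, such as Hoxa3 with Hoxa4, Hoxa5 and Hoxa6, and Hoxb3 with Hoxb4. How reads in such overlaps were counted is not given in the sources used here, so levels set side by side between genes carry that limit. Kept cells numbered 10016 after Isx-9, 8969 after DMSO, 9610 in the reporter and 8745 in wild type, with medians of 9374, 13388, 12633 and 15007 UMIs. The matrices shared 231 barcodes, with 32 to 52 for each pair. The wild-type library stood apart from the others in its sex-linked transcripts. It held 3432 cells with Xist and no Y-linked UMIs, 3489 with Y-linked and no Xist UMIs, 578 with both and 1246 with neither. The untreated reporter library had 9, 6562, 22 and 3017 such cells, the DMSO library 4, 6258, 16 and 2691, and the Isx-9 library 12, 7285, 38 and 2681. The main reporter to wild-type comparisons of Hox genes are therefore also given for cells with Y-linked and no Xist UMIs. So are those of some genes of gut regions. With 1 library per group there is no test in single cells, and all intervals are exact and cover counting error only, at 95%. The lowest number of cells with a UMI was 3 for any gene in a matrix, so a gene absent from a matrix is called not listed, not 0, and gets no fold. Sums over several genes hold the listed members only, so a gene that is not listed adds nothing to them.

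After 6 hours of Isx-9, sorted stem cells had more transcripts of 5 posterior and central Hox genes, and the anterior ones tested did not pass. Of 29 Hox genes with any count, 13 had enough counts to be tested with edgeR. Hoxa7, Hoxa9, Hoxb13, Hoxc6 and Hoxd13 rose and 0 fell at an adjusted p under 0.05. Over all 17418 genes tested, 27.3% rose and 20% fell, so 5 of 13 was close to the share over all genes and is no result about the family. Of all calls 57.7% were in the higher direction, and 72.3% with library size alone in place of TMM scaling, which shifts log2 fold changes by about 0.126; the same number of Hox genes rose under both. By position, 3 of 3 posterior, 2 of 6 central and 0 of 4 anterior genes tested rose. These numbers give no comparison of positions, since posterior Hoxb13 and Hoxd13 and central Hoxc6 had 0 DMSO counts and entered the test only through the Isx-9 libraries, and 100% of the 461 tested genes of that kind rose. Counts in bulk grow with the number of cells of a type and with the RNA per cell, and fewer cells of a type and less RNA per cell cannot be told apart. Whether replicates were separate cultures is not stated, so a p-value here speaks only to the spread among these 4 libraries.

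Hoxd13, which in mice acts in the digits and the most posterior gut and urogenital tract, had 11 and 29 counts after Isx-9 and 0 and 0 counts after DMSO. That is at least 12.2-fold higher when DMSO is entered as 3 counts, the floor used here for both libraries together (edgeR quasi-likelihood test, adjusted p = 0.00255). Hoxb13, the last gene of the B cluster, active in the tail bud and the prostate, had 18 and 20 counts after Isx-9 and 0 and 0 counts after DMSO. The difference was at least 11.6-fold, with an edgeR adjusted p of 0.00150. DMSO-treated stem cells had no read of either gene, and both Isx-9 libraries had reads of both. Without Isx-9 replicate 2, Hoxd13 had too few counts to be tested.

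Hoxc6, a central gene of the C cluster used at thoracic levels, had 26 and 16 counts after Isx-9 and 0 and 0 counts after DMSO. Its difference was at least 12.8-fold (edgeR adjusted p = 0.00145). Hoxa7 had 77 and 31 counts after Isx-9 and 16 and 11 counts after DMSO, a log2 fold change of 1.86 (SE 0.57, edgeR adjusted p = 0.0198). Hoxa9, which also acts in blood stem cells, had 48 and 25 counts after Isx-9 and 3 and 15 counts after DMSO, a log2 fold change of 1.87 (SE 0.71, edgeR adjusted p = 0.0490). In each of these 3 genes the libraries did not overlap between treatments, and Hoxa9 lies close to the threshold. Without Isx-9 replicate 1 the number of Hox genes that rose was 3 instead of 5, with adjusted p = 0.366 for Hoxa7 and 0.391 for Hoxa9 in edgeR. Hoxa9 also missed the threshold without Isx-9 replicate 2 (edgeR adjusted p = 0.0711), without DMSO replicate 1 (0.217), with no filter on low counts (0.144), with the replicate number as a block (0.0508) and in DESeq2 (0.108). Hoxa7 missed it without DMSO replicate 2 (0.0694) and with no filter on low counts (0.0648).

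Promoters of Hoxa7, Hoxa9 and Hoxd13 are shown because these genes rose and RefSeq promoter windows (250 bases before to 50 after the start, GRCm38.p6) were at hand for them. Capitals mark CpG dinucleotides, each read 5′ to 3′ on the gene's strand. The Hoxa7 window is chr6:52218524-52218823 on the minus strand with 9 CpG, the Hoxa9 window chr6:52227321-52227620 on the minus strand with 4 CpG, and the Hoxd13 window chr2:74667975-74668274 on the plus strand with 37 CpG.
Hoxa7: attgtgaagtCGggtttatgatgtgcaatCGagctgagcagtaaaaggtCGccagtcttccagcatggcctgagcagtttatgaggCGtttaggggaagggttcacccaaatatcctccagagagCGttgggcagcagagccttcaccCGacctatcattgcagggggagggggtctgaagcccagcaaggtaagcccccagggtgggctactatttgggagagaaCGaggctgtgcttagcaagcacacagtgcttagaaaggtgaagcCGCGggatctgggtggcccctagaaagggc
Hoxa9: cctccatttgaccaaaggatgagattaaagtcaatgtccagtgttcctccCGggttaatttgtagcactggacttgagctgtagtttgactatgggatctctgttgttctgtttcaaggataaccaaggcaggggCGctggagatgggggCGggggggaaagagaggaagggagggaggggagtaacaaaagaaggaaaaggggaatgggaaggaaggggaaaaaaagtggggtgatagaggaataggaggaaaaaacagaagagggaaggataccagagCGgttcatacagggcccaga
Hoxd13: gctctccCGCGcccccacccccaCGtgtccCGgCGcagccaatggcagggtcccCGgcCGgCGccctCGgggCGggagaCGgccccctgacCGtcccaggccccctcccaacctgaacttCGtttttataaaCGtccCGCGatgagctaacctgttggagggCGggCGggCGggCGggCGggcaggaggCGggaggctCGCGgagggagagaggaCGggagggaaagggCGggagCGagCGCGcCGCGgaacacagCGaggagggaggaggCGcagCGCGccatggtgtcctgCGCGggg
Of these 3 windows that of Hoxd13 was dense in CpG and those of Hoxa7 and Hoxa9 were not, and other A-cluster windows ranged up to the 45 CpG of Hoxa13. Across the 24 windows of 22 Hox genes with an entry, the median was 14.5 CpG, against 7 over all 32851 windows in the table. An observed to expected CpG ratio over 0.6 was found in 50% of Hox windows and in 35.8% of all windows. The Hox-Pbx composite motif TGATNNAT, searched on both strands, lay in 16.7% of Hox windows (those of Hoxa2, Hoxb1, Hoxb8 and Hoxd11) and in 8.85% of all windows. The letters TATAAA were in 16.7% and 13.6% of these windows, Hoxd13 among them. The MEF2 letters (CTA and, after 4 bases, TAG) were in 4.17% and 3.69%, and the retinoic acid DR5 repeat (AGGTCA and again AGGTCA after 5 bases) in 0 Hox windows and 0.00913% of all. Matches are letters in a window and not shown to be bound, and overlapping matches count once per window.

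The remaining Hox genes tested in bulk did not pass. Hoxa3, which patterns the thymus and parathyroid in mice, had 106 and 127 counts after Isx-9 and 111 and 95 counts after DMSO (log2 fold change 0.05, edgeR adjusted p = 0.898). Hoxb3 had 73 and 39 counts after Isx-9 and 57 and 49 counts after DMSO (log2 fold change -0.05, edgeR adjusted p = 0.938). For both genes the libraries of the treatments overlapped. Hoxb2 had 36 and 38 counts after Isx-9 and 31 and 26 counts after DMSO, with an edgeR adjusted p of 0.688. Hoxb4 had 33 and 20 counts after Isx-9 and 24 and 20 counts after DMSO, with an edgeR adjusted p of 0.850. Hoxa2, active in the hindbrain and second branchial arch, had 31 and 31 counts after Isx-9 and 24 and 3 counts after DMSO, with an edgeR adjusted p of 0.253. For Hoxa2 the gap between the DMSO libraries was wider than the difference between the treatment means, and without DMSO replicate 1 the gene passed (edgeR adjusted p = 0.0166).

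Hoxa4, Hoxa5 and Hoxb6 had higher means after Isx-9 without passing. Hoxa4 had 18 and 28 counts after Isx-9 and 5 and 10 counts after DMSO (log2 fold change 1.47, edgeR adjusted p = 0.0853). Hoxa5, needed for lung and gut development in mice, had 30 and 17 counts after Isx-9 and 16 and 2 counts after DMSO (log2 fold change 1.25, edgeR adjusted p = 0.213). Hoxb6 had 42 and 18 counts after Isx-9 and 10 and 15 counts after DMSO (log2 fold change 1.13, edgeR adjusted p = 0.157). In raw counts the libraries did not overlap for these 3 genes, as for 36.8% of all genes in the higher direction. On the CPM scale Hoxa5 did overlap, with 0.848 in Isx-9 replicate 2 and 0.861 in DMSO replicate 1.

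Another 16 Hox genes had too few counts to test. Hoxd8 had 22 and 9 counts after Isx-9 and 0 and 0 counts after DMSO, at least 9.46-fold higher. Hoxa10, which patterns the uterus and the lumbar region, had 38 and 9 counts after Isx-9 and 1 and 7 counts after DMSO. Its ratio was 5.38 (2.52 to 13.2, counting error only), Isx-9 over DMSO. Hoxb7 had 6 and 23 counts after Isx-9 and 3 and 4 counts after DMSO, a ratio of 3.79 (1.63 to 10.3). Hoxb9 had 18 and 4 counts after Isx-9 and 0 and 1 counts after DMSO, a ratio of 20.1 (3.26 to 831). For all 4 genes both Isx-9 libraries lay above both DMSO libraries. The other 12 had between 2 and 14 counts over both Isx-9 libraries and between 0 and 6 over both DMSO libraries. In all, 14 Hox genes had counts after Isx-9 and 0 in both DMSO libraries, and 0 showed the reverse; over all genes these numbers were 4270 and 1467.

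Over the 29 Hox genes with a count, 18 had both Isx-9 libraries above both DMSO libraries in raw counts, 0 had both below and 11 overlapped. Of all 27399 genes, 36.8% did not overlap in the higher direction and 18.1% in the lower. Hox genes summed to 669 and 518 counts after Isx-9 and to 306 and 261 counts after DMSO. These totals were 33.3 and 25.8 CPM after Isx-9 and 16.5 and 14.4 CPM after DMSO, and 25 and 26 Hox genes against 14 and 15 had a count. The background depended on how abundant a gene was after DMSO. The 3 Hox genes with 0 DMSO counts share their call with all tested genes of that class. Of those with 11 to 30 DMSO counts 38.1% rose, with 2 of 6 Hox genes, and of those with 31 to 100 counts 28.1% rose, with 0 of 2 Hox genes. In the authors' deposited table, Hoxa7, Hoxb13, Hoxc6, Hoxd8 and Hoxd13 had an adjusted p under 0.05, and 10 Hox genes had none given.

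**Figure D1:**
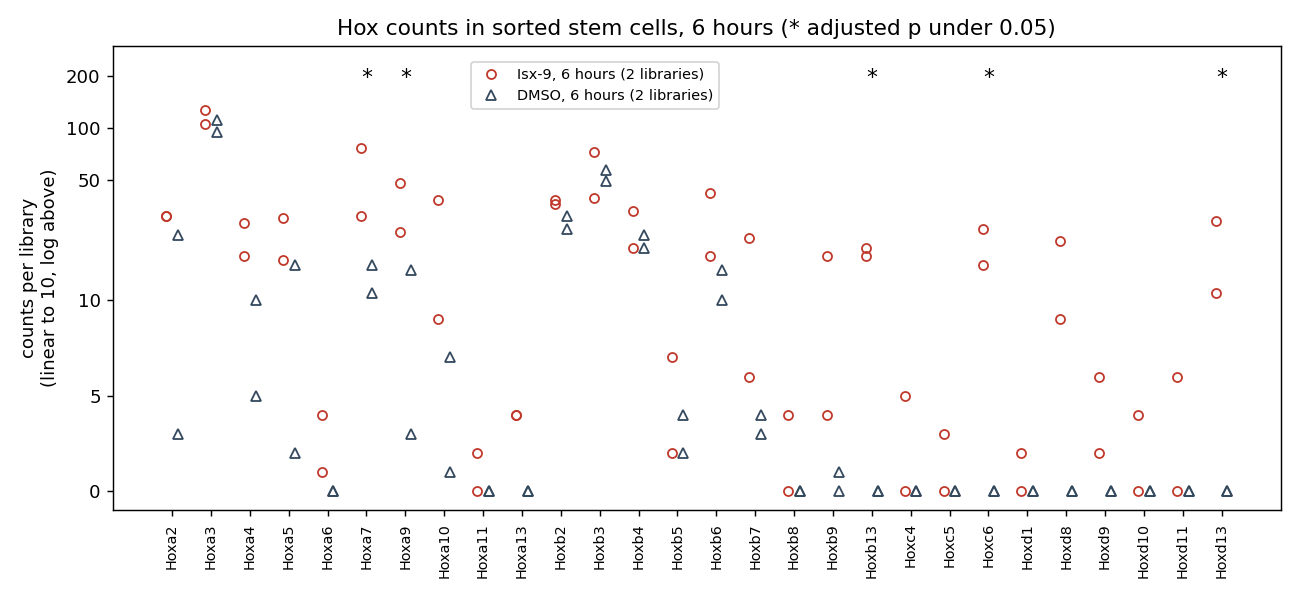
Counts of 28 Hox genes (vertical axis, linear to 10 and logarithmic above) in 2 Isx-9 and 2 DMSO bulk libraries of sorted stem cells at 6 hours, ordered by cluster and position, with asterisks on the 5 genes that passed the edgeR test. Hoxa3 lies at about the same height in all 4 libraries, while Hoxa2, also anterior, spreads from 3 to 31 counts. DMSO points lie at 0 for all genes shown of the C and D clusters.

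Markers of other cell types moved in the same bulk libraries. The mesenchymal list summed to 50.5 and 32.6 CPM after Isx-9 and to 5.49 and 6.45 CPM after DMSO, and 3 of 3 tested members rose. Vim, an intermediate filament gene, had 623 and 408 counts after Isx-9 and 69 and 93 counts after DMSO, and Col1a1, a collagen gene, 150 and 112 against 22 and 19 counts. The endothelial list rose in 3 of 3 tested members, the neural and glial list in 2 of 4 and the immune list in 0 of 2, against 27.3% of all genes. Of the 3 endothelial genes, 1 had 0 DMSO counts and entered the test only through the Isx-9 libraries. All tested genes of that kind rose, so its call was fixed in advance. Only 1 endothelial gene rose without Isx-9 replicate 2, and 0 neural and glial genes without Isx-9 replicate 1. Genes of the gut epithelium itself moved too. The stem cell list summed to 7336 and 6092 CPM after Isx-9 and to 9447 and 9368 CPM after DMSO, and 5 of 6 members fell (3 with library size alone, with no filter, without Isx-9 replicate 2 or without DMSO replicate 1), against 20% of all genes. Of the regenerative list 3 of 4 tested members rose, with 1 in DESeq2, with no filter or without DMSO replicate 2, and of the tuft list 2 of 4. Anxa1, a regenerative gene, had 378 and 270 counts after Isx-9 and 39 and 34 counts after DMSO. Their part in the Hox counts was not tested.

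After 6 days of Isx-9, Hox transcripts were higher from all 4 clusters than after DMSO. They summed to 237.1 CPM after Isx-9 (26736 UMIs) and to 16.2 after DMSO (2053 UMIs), a ratio of 14.7 (14.0 to 15.4). All 31 Hox genes with at least 20 UMIs over both libraries were at least 2-fold higher after Isx-9, and 0 were 2-fold lower. A gene that was not listed entered at a floor of 3 UMIs. Genes not listed after DMSO reached 20 UMIs only through Isx-9, so their call was fixed in advance. The 19 Hox genes listed after DMSO were all at least 2-fold higher. Those with very few DMSO UMIs, such as Hoxa6 with 4, also reached 20 UMIs only through Isx-9. The others could have come out otherwise. Over all 17508 genes so compared, 36.2% were 2-fold higher and 4.92% 2-fold lower. Isx-9 listed 18 Hox genes that DMSO did not, of 37; over all genes 14.5% of those listed after Isx-9 were not listed after DMSO.

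The clusters differed in size of change. Cluster A had 55.8 CPM after Isx-9 and 4.99 after DMSO, a ratio of 11.2 (10.3 to 12.2). Cluster B had 151.7 after Isx-9 and 11.02 after DMSO, a ratio of 13.8 (13.03 to 14.5). Both were present in DMSO-treated organoids, and cluster B was the larger. Cluster C had 13.6 CPM after Isx-9 and 0.0708 after DMSO, a ratio of 191 (101 to 420). Cluster D had 16.1 after Isx-9 and 0.0708 after DMSO, a ratio of 227 (119 to 498). Both were close to absent after DMSO, with 9 UMIs each, all from Hoxc6 and from Hoxd8.

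Ratios of summed UMIs differed by position within a cluster as well. In cluster A the anterior genes had an Isx-9 to DMSO ratio of 3.57 (3.02 to 4.24), the central ones 19.03 (16.8 to 21.6) and the posterior ones 6.81 (5.80 to 8.03). In cluster B the ratios were 11.7 (10.2 to 13.4) for anterior, 15.5 (14.5 to 16.5) for central and 8.70 (7.55 to 10.1) for posterior genes. In both clusters the central genes had the highest summed ratio, with intervals apart from those of the other positions. The posterior sums after Isx-9 include Hoxa11, Hoxa13 and Hoxb13, which were not listed after DMSO. Hoxa7 gave 3288 of the 4644 central A-cluster UMIs after Isx-9. In cluster B single members did not divide in this way. Anterior Hoxb2 (17.9) lay near central Hoxb8 (19.6), and anterior Hoxb3 (10.2) near central Hoxb5 (10.5). Posterior C and D genes had 4.18 and 11.5 CPM after Isx-9 and were not listed after DMSO. With 2 libraries, these values describe those libraries, not the treatments.

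**Figure D2:**
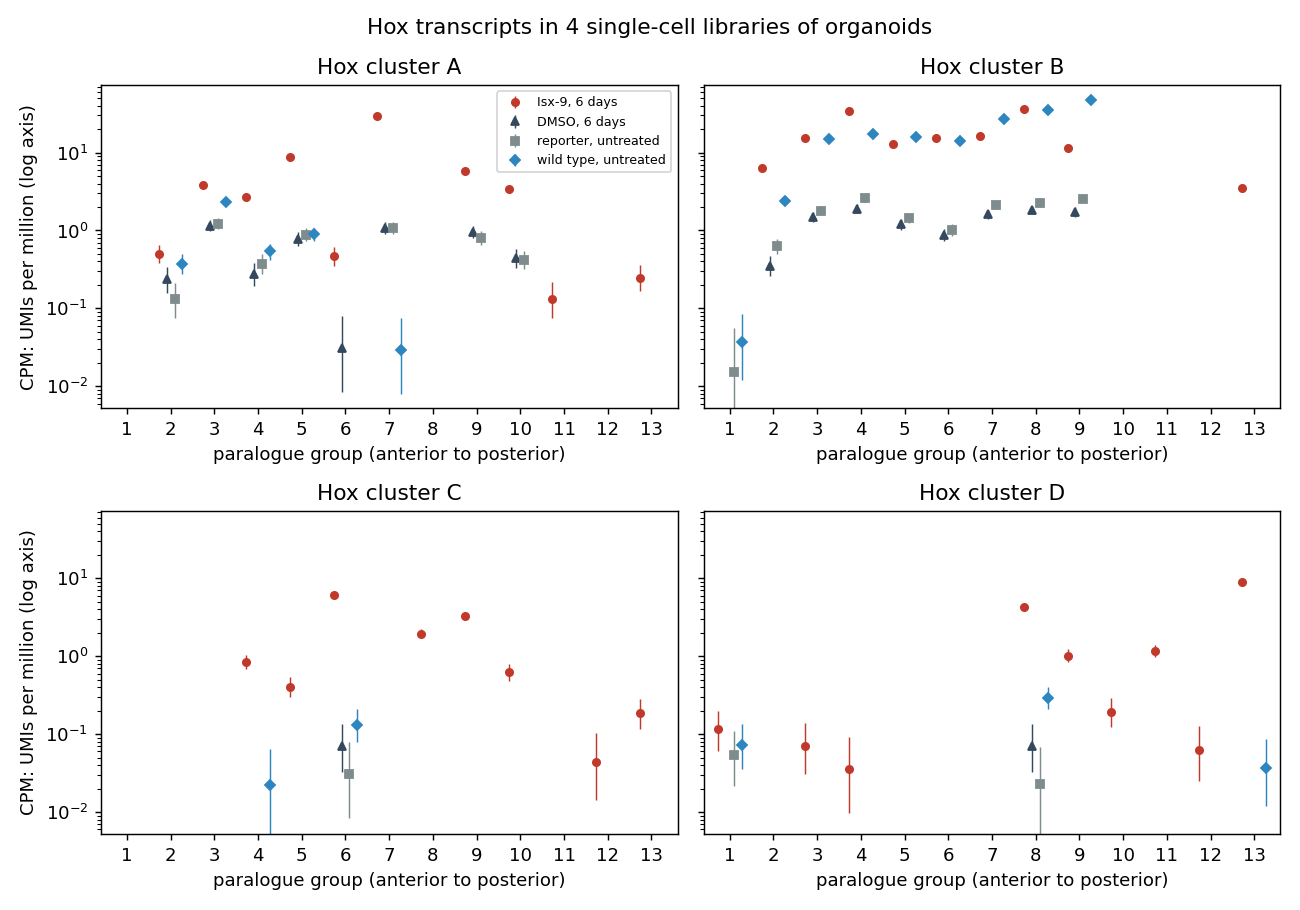
CPM (log axis) of listed Hox genes by paralogue group, 1 panel per cluster, in the Isx-9, DMSO, untreated reporter and wild-type libraries, with exact 95% intervals. Isx-9 points stand above DMSO points in every panel, wild-type points lie near the Isx-9 ones in cluster B, and clusters C and D hold hardly any point from the other libraries.

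In the A cluster, Hoxa7 had the most transcripts after Isx-9. Hoxa7 had 29.2 CPM after Isx-9 and 1.08 after DMSO (3288 and 137 UMIs), a ratio of 27.0 (22.8 to 32.3). It made up 52.3% of the A-cluster UMIs after Isx-9 and 21.6% after DMSO. Hoxa3 gave 6.82% of A-cluster UMIs after Isx-9 and 23.2% after DMSO. The A cluster thus differed in make-up as well as in amount, with Hoxa7 taking a larger share and Hoxa3 a smaller one. Hoxa3 had 3.80 CPM after Isx-9 and 1.16 after DMSO, a ratio of 3.29 (2.72 to 3.99). Hoxa2 had 0.505 after Isx-9 and 0.236 after DMSO, the lowest ratio of any member at 2.14 (1.35 to 3.45). Among anterior A-cluster genes, Hoxa3 was thus above Hoxa2 in level, and the intervals of their ratios overlap.

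Hoxa5 had 8.83 CPM after Isx-9 and 0.779 after DMSO, a ratio of 11.3 (9.22 to 14.1). Hoxa4 had 2.72 after Isx-9 and 0.275 after DMSO, a ratio of 9.89 (6.96 to 14.5). Hoxa6 had 0.470 after Isx-9 and 0.0315 after DMSO, from 53 and 4 UMIs. The intervals of Hoxa4, Hoxa5 and Hoxa6 overlap and lie around 10-fold. Hoxa9 had 5.74 CPM after Isx-9 and 0.952 after DMSO, a ratio of 6.03 (4.96 to 7.38). Hoxa10 had 3.36 after Isx-9 and 0.441 after DMSO, a ratio of 7.63 (5.75 to 10.3). Hoxa13 and Hoxa11 had 28 and 15 UMIs after Isx-9 and were not listed after DMSO. After Isx-9 the level thus peaked at Hoxa7, with each posterior gene below it. Hoxa9 and Hoxa10 still lay above Hoxa4 and Hoxa6, and the intervals of their ratios overlapped. Summed, posterior A-cluster genes had 9.48 CPM after Isx-9 and anterior ones 5.12.

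In the B cluster, Hoxb8 and Hoxb4 led. Hoxb8 had 35.9 CPM after Isx-9 and 1.83 after DMSO (4048 and 233 UMIs), a ratio of 19.6 (17.2 to 22.4). Hoxb4, known for its role in blood stem cells, had 34.5 after Isx-9 and 1.90 after DMSO, a ratio of 18.1 (15.9 to 20.7). Their ratios overlap, and together with Hoxb2 and Hoxb6 they form the upper group of the cluster. Hoxb6 had 15.5 CPM after Isx-9 and 0.881 after DMSO, a ratio of 17.6 (14.5 to 21.5). Hoxb2 had 6.34 after Isx-9 and 0.354 after DMSO, a ratio of 17.9 (13.2 to 24.8). Hoxb2 is the anterior end of what was detected, since Hoxb1 was listed in neither library.

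Hoxb3, Hoxb5 and Hoxb7 stood at about 10-fold. Hoxb3 had 15.2 CPM after Isx-9 and 1.5 after DMSO, a ratio of 10.2 (8.76 to 11.9). Hoxb5 had 12.7 after Isx-9 and 1.21 after DMSO, a ratio of 10.5 (8.86 to 12.4). Hoxb7 had 16.5 after Isx-9 and 1.61 after DMSO, a ratio of 10.2 (8.86 to 11.9). Even and odd members thus alternated from Hoxb2 to Hoxb8, and the intervals of the 2 sets do not meet, with lower bounds from 13.2 for even and upper bounds up to 12.4 for odd members. Hoxb9 had 11.6 CPM after Isx-9 and 1.73 after DMSO, the lowest ratio of the cluster at 6.69 (5.79 to 7.75). Hoxb13, which lies apart from the others at the posterior end, had 393 UMIs after Isx-9 (3.49 CPM) and was not listed after DMSO. The same gene was among those that rose in stem cells at 6 hours.

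In the C cluster, Hoxc6 had 6.18 CPM after Isx-9 and 0.0708 after DMSO (697 and 9 UMIs), a ratio of 87.3 (45.7 to 192). Hoxc9 and Hoxc8, which set thoracic and brachial motor neuron identity in the spinal cord, had 375 and 219 UMIs after Isx-9. Hoxc4, Hoxc10 and Hoxc5 had 96, 70 and 46 UMIs after Isx-9. Of the C cluster only Hoxc6 was listed after DMSO, and it gave 45.6% of the cluster's UMIs after Isx-9, with Hoxc9 at 24.5%. Hoxc13, a hair and nail gene, had 21 UMIs and Hoxc12 had 5.

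In the D cluster, Hoxd13 led with 9.09 CPM after Isx-9 (1025 UMIs), and it was not listed after DMSO. Hoxd8 had 4.33 CPM after Isx-9 and 0.0708 after DMSO (488 and 9 UMIs), a ratio of 61.1 (31.9 to 134). Hoxd11 and Hoxd9 had 133 and 115 UMIs after Isx-9. Hoxd13 made up 56.5% of D-cluster UMIs after Isx-9 and Hoxd8 26.9%, so the posterior end and a central gene dominated. Hoxd10, Hoxd1, Hoxd3, Hoxd12 and Hoxd4 had 22, 13, 8, 7 and 4 UMIs after Isx-9.

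Depth was lower after Isx-9, not higher, so with each cell thinned to 3000 UMIs a cell held on average 0.786 Hox genes after Isx-9, against 0.0539 after DMSO. For each of the 19 Hox genes with UMIs in both libraries, the ratio over all deposited cells and that in cells with at least 3000 UMIs lay within the interval given. Marker lists of mesenchymal, immune, endothelial, and neural and glial cells had higher sums after Isx-9. Mesenchymal genes summed to 362.8 CPM after Isx-9 and to 34.1 after DMSO, 7 of 7 compared being 2-fold higher, with Vim at 349 and 34.0 CPM and Col1a1 at 361 and 8 UMIs. Lum was listed in neither library, and Dcn and Col3a1 were not listed after DMSO. The immune list summed to 19.4 after Isx-9 and 0.960 after DMSO, and the endothelial list to 15.2 and 0.881. The neural and glial list summed to 26.8 and 2.82. Cd3e, Tyrobp and Cdh5 were listed in neither library. Of those compared, 3 of 4 immune, 2 of 3 endothelial and 4 of 4 neural and glial genes were 2-fold higher. In these lists 0 were lower, and over all genes 36.2% were higher and 4.92% lower. Some mesenchymal, endothelial, and neural and glial genes that count as higher were not listed after DMSO, Dcn and Col3a1 among them. They entered at the floor of 3 UMIs and their calls were fixed in advance, so these counts give no firm comparison with all genes. The part of these lists in the Hox levels was not tested.

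The vehicle itself went with small differences. DMSO-treated reporter organoids had 16.2 CPM of Hox genes and untreated reporter organoids 19.5, a ratio of 0.827 (0.780 to 0.877). Of 15 Hox genes compared 0 were 2-fold higher and 0 2-fold lower, against 0.619% and 0.514% of 15357 genes. Cluster A was at a ratio of 1.01 (0.899 to 1.12) and cluster B at 0.762 (0.711 to 0.817). Hoxb2 had the lowest ratio, 0.561 (0.381 to 0.817), with 0.354 CPM after DMSO and 0.631 untreated. Hoxa7 had 1.08 CPM in both libraries. DMSO-treated and untreated reporter organoids thus stood close in cluster A, and a little apart in cluster B.

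Untreated reporter and wild-type organoids differed in Hox transcripts mostly through the B cluster. Reporter organoids had 19.5 CPM of Hox genes and wild type 179.1, a ratio of 0.109 (0.105 to 0.114). Cluster B had 14.5 CPM in the reporter and 174.3 in wild type, a ratio of 0.0830 (0.0791 to 0.0870), while cluster A had 4.96 and 4.21, a ratio of 1.18 (1.05 to 1.32). Of 17 Hox genes compared, Hoxa7, Hoxa9 and Hoxa10 were at least 2-fold higher in the reporter and 11 were at least 2-fold lower. The shares over all 15473 genes compared were 2.04% and 3.9%. Hoxa9 and Hoxa10, not listed in wild type, entered there at the floor of 3 UMIs, so their call was fixed in advance. Hoxa7, with 4 UMIs in wild type, reached 20 UMIs only through the reporter. Hoxc6 and Hoxd8, with 4 and 3 in the reporter, reached them only through wild type. The calls of these genes were fixed by that rule too. The 11 were Hoxa2, Hoxb2 to Hoxb9, Hoxc6 and Hoxd8.

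Along the B cluster the ratio of reporter to wild type grew smaller from anterior to posterior genes. Hoxb9 had 2.56 CPM in the reporter and 47.8 in wild type (333 and 6482 UMIs), a ratio of 0.0537 (0.0479 to 0.0599). Hoxb8 had 2.28 in the reporter and 35.4 in wild type, a ratio of 0.0643 (0.0570 to 0.0723). Hoxb7 had 2.11 in the reporter and 26.6 in wild type, a ratio of 0.0792 (0.0698 to 0.0896). These posterior and central members are the most abundant in wild type, where Hoxb9 gave 27.4% of B-cluster UMIs, against 17.7% in the reporter. Hoxb6 had 1.02 in the reporter and 14.2 in wild type, a ratio of 0.0720 (0.0599 to 0.0858). Hoxb5 had 1.45 in the reporter and 15.8 in wild type, a ratio of 0.0918 (0.0787 to 0.107). Hoxb4 had 2.59 in the reporter and 17.2 in wild type, a ratio of 0.151 (0.134 to 0.169). At the anterior end the differences were smaller. Hoxb3 had 1.80 in the reporter and 14.8 in wild type, a ratio of 0.121 (0.106 to 0.139), and Hoxb2 0.631 and 2.39, a ratio of 0.264 (0.204 to 0.337). The order is not strict, since Hoxb3 lies below Hoxb4 and Hoxb6 below Hoxb7, with intervals that meet in each pair.

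Hoxb13 was listed in neither library. Hoxb1 had 2 UMIs in the reporter and 5 in wild type. As a group, anterior B genes stood at a ratio of 0.142 (0.126 to 0.159), central ones at 0.0865 (0.0815 to 0.0917) and the posterior gene Hoxb9 at 0.0537. The 3 intervals do not overlap.

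In the A cluster the direction turned along the cluster. Hoxa3 had 1.22 CPM in the reporter and 2.29 in wild type, a ratio of 0.534 (0.438 to 0.648). Hoxa2 had 0.131 in the reporter and 0.376 in wild type, a ratio of 0.348 (0.188 to 0.613). Both of these anterior genes were lower in the reporter. Hoxa4 had 0.377 in the reporter and 0.538 in wild type, a ratio of 0.701 (0.478 to 1.02), and Hoxa5 0.885 and 0.891, a ratio of 0.993 (0.762 to 1.29). Their intervals include 1. Hoxa7 had 1.08 CPM in the reporter and 0.0295 in wild type (140 and 4 UMIs), a ratio of 36.6 (14.0 to 136). Hoxa9 and Hoxa10 had 105 and 55 UMIs in the reporter and were not listed in wild type. From Hoxa7 on, the A cluster was thus detected in reporter organoids and nearly missing in wild type, at a similar depth. Hoxa7 gave 21.7% of A-cluster UMIs in the reporter and 0.701% in wild type, and Hoxa3 24.7% in the reporter and 54.5% in wild type.

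Clusters C and D held few UMIs in either. Hoxd8 had 3 UMIs in the reporter and 40 in wild type, a ratio of 0.0783 (0.0155 to 0.246). Hoxc6 had 4 UMIs in the reporter and 18 in wild type, a ratio of 0.232 (0.0571 to 0.705). Hoxd1 had 7 UMIs in the reporter and 10 in wild type. Hoxd13 and Hoxc4 had 5 and 3 UMIs in wild type and were not listed in the reporter. The D-cluster ratio was 0.190 (0.0863 to 0.376) and the C-cluster ratio 0.199 (0.0496 to 0.590), from 10 and 4 UMIs in the reporter.

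The wild-type cells split by sex-linked transcripts differed among themselves in the B cluster. Cells with Xist and no Y-linked UMIs had 287 CPM of B-cluster genes and cells with Y-linked and no Xist UMIs 90.3, a ratio of 3.18 (3.08 to 3.28). For Hoxb9 the levels were 80.1 and 23.4, a ratio of 3.42 (3.22 to 3.64), and for Hoxb4 26.9 and 9.93, a ratio of 2.71 (2.46 to 2.99). Hoxb3 to Hoxb9 were at least 2-fold higher and Hoxd8 at least 2-fold lower in Xist cells among 13 Hox genes compared, against 2.14% and 1.34% of 14220 genes. Cluster A did not differ in this way, at 3.92 and 4.39 CPM and a ratio of 0.892 (0.738 to 1.08).

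Within cells with Y-linked and no Xist UMIs, the reporter and wild type still differed in the same direction, and by less in the B cluster and in the sum. Hox genes summed to 20.1 CPM in the reporter and 95.4 in wild type, a ratio of 0.211 (0.200 to 0.222). Cluster B was at a ratio of 0.168 (0.158 to 0.178) and cluster A at 1.11 (0.954 to 1.30). Of 16 Hox genes compared, 3 were 2-fold higher and 10 2-fold lower in the reporter, against 2.02% and 2.26% of 14637 genes. Hoxb9 had 2.77 CPM in the reporter and 23.4 in wild type, a ratio of 0.118 (0.103 to 0.135). Hoxd8 was at a ratio of 0.0502 (0.00575 to 0.202) and Hoxa2 at 0.280 (0.133 to 0.558), each lower than over all cells, with wide intervals. Hoxb8 was at a ratio of 0.133 (0.115 to 0.153) and Hoxb4 at 0.271 (0.234 to 0.314). Hoxa7 had 1.10 in the reporter and 0.0505 in wild type, a ratio of 21.9 (7.29 to 108). Every B-cluster member from Hoxb2 to Hoxb9 had a ratio closer to 1 than over all cells. Hoxa7, Hoxa9 and Hoxa10 were again at least 2-fold higher in the reporter, with Hoxa9 and Hoxa10 again entered at the floor in wild type. Hoxa7, with 3 UMIs in these wild-type cells, and Hoxd8, with 2 in these reporter cells, reached 20 UMIs only through the other library. Their calls were again fixed by that rule.

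**Figure D3:**
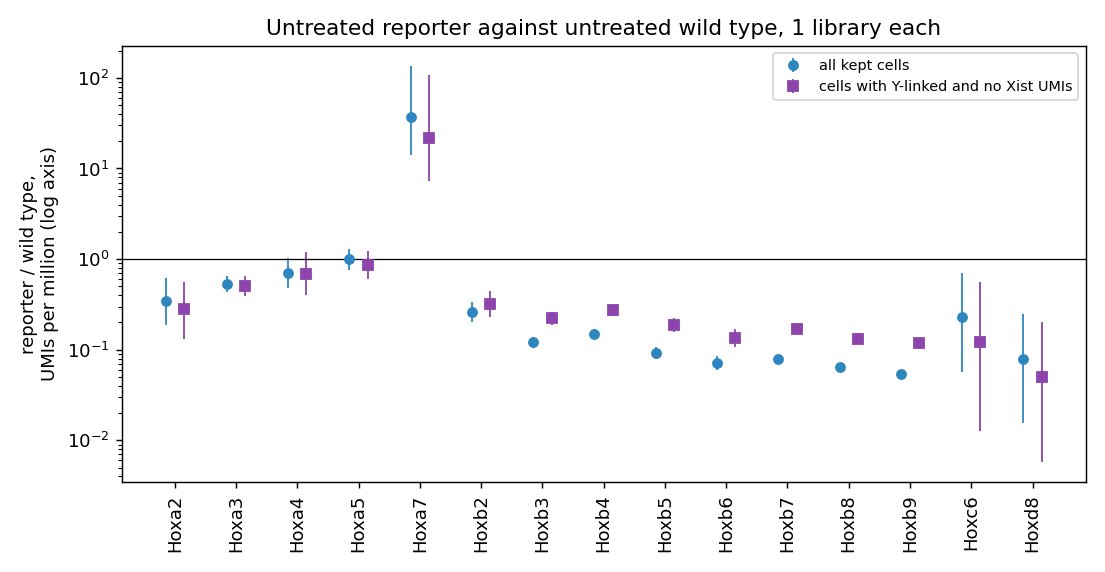
Ratio of CPM (log axis), untreated reporter over untreated wild type, for Hox genes with at least 20 UMIs over both libraries, in all kept cells and in cells with Y-linked and no Xist UMIs, with exact 95% intervals. B-cluster genes lie below 1 in both sets of cells, Hoxa5 lies near 1 and Hoxa7 lies above 10 in all kept cells.

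Genes known to be used in different stretches of the small intestine differed between the same libraries. Of 10 genes of the distal small intestine, 8 were at least 2-fold lower in the reporter than in wild type and 0 higher, against 3.9% and 2.04% of all genes compared. Fabp6, an ileal bile acid binding protein, had 4.15 CPM in the reporter and 117 in wild type, a ratio of 0.0355 (0.0325 to 0.0387). Slc10a2, the ileal bile acid transporter, had 2.33 in the reporter and 16.5 in wild type, a ratio of 0.141 (0.125 to 0.159). Fgf15, the ileal hormone that restrains bile acid synthesis, had 0.516 in the reporter and 2.50 in wild type, a ratio of 0.206 (0.156 to 0.269). Distal genes thus differed in the direction of the B cluster.

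Of 10 genes of the proximal small intestine, Rbp2 was 2-fold higher and Slc40a1 2-fold lower in the reporter, 1 in each direction. Gata4, which keeps the jejunum distinct from the ileum, had 25.6 CPM in the reporter and 13.3 in wild type, a ratio of 1.92 (1.81 to 2.03). Onecut2 had 119 in the reporter and 59.6 in wild type, a ratio of 2.00 (1.94 to 2.05). Cdx2 and Cdx1, which act upstream of Hox genes, were at 0.801 (0.785 to 0.816) and 0.901 (0.881 to 0.921), and 0 of 21 genes on the list of Hox regulators compared passed 2-fold. In cells with Y-linked and no Xist UMIs, distal Fabp6, Slc10a2, Bex1 and Osr2 were at 0.0421, 0.300, 0.199 and 0.550. Proximal Gata4, Onecut2, Fabp1 and Rbp2 were at 1.47, 1.54, 1.25 and 1.91 there, each under 2-fold, so the call of Rbp2 ended. Other genes of the distal and proximal lists were not compared in these cells. Within wild type Fabp6 was at 2.01 and Gata4 at 0.440, Xist cells over Y-linked cells. What line, sex or stretch of gut each library came from was not given, so genotype and these cannot be told apart.

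Clustering of the 4 libraries together without Hox genes placed Isx-9 cells almost wholly in clusters of their own. A cluster held by 1 library may be that library and not a cell type. Cluster 3 (4082 Isx-9 cells, led by Pcsk1n, Chgb and Tac1) was enteroendocrine-like by its markers, and the control libraries had their enteroendocrine-like cells in cluster 13 (led by Afp, Reg4 and Tph1) and cluster 14 (led by Gcg, Nts and Gip). Cluster 4 (661 Isx-9 cells) was progenitor-like, with Neurog3, the switch of enteroendocrine progenitors, among its leading genes, and cluster 0 (3347 Isx-9 cells) was led by Cym and Ldhb. Cluster 9 was led by Olfm4, a stem cell gene, and Gkn3. Cluster names were rebuilt here from markers.

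Hox transcripts were highest in enteroendocrine-like cells in every library. After Isx-9, cluster 3 had 611 CPM of Hox genes (602 to 620), cluster 4 had 165 (155 to 176), and cluster 0 had 49.6 (47.5 to 51.7). After DMSO, cluster 14 had 98.4 (85.6 to 113), cluster 13 had 78.1 (69.6 to 87.3) and cluster 9 had 6.24 (5.35 to 7.23). Untreated reporter cells had 162 in cluster 14, 89.3 in cluster 13 and 6.53 in cluster 9, and wild-type cells 669, 578 and 15.9. Clusters 13 and 14 thus stood above cluster 9 in each library without Isx-9, at different heights. The 136 Isx-9 cells in cluster 13 had 324 CPM. Cluster 11, whose top gene was Xist though reporter libraries held few Xist cells, came next after clusters 13 and 14, with 61.8 after DMSO, 78.4 in the reporter and 269 in wild type. Of the kept Isx-9 cells, 831 were called doublets and left out of the clusters; with them kept, the cluster with the most Cym had 87.0 instead of 49.6. The doublet caller called 0, 0 and 1 cells in the DMSO, reporter and wild-type libraries, where it did not work.

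The clusters of Hox genes differed in where they were found. For the B cluster, Isx-9 cells had 428 CPM in cluster 3 and 17.9 in cluster 0, DMSO cells had 82.5 in cluster 14 and 1.90 in cluster 9, and wild-type cells 654 in cluster 14 and 13.9 in cluster 9. The A cluster was flatter. Isx-9 cells had 103 CPM of A-cluster genes in cluster 3, 76.8 in cluster 4 and 27.1 in cluster 0, and DMSO cells 15.4 in cluster 13 and 4.33 in cluster 9. Tuft-like cells, the chemosensory cells of cluster 5, had 21.0 CPM of A-cluster genes after DMSO, 16.7 in the reporter and 21.3 in wild type, near the 14.5 to 23.1 of clusters 13 and 14 in these libraries. The C and D clusters together had 79.8 in cluster 3, 24.5 in cluster 1 and 4.53 in cluster 0 after Isx-9, and 2.77 in cluster 13 after DMSO.

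Single members showed the same contrast and a few exceptions. Hoxb8 had 108 CPM in cluster 3 and 2.60 in cluster 0 after Isx-9, and Hoxd13 had 28.7 and 0.529. Hoxa7 had 56.3 in cluster 3, 40.0 in cluster 4 and 13.4 in cluster 0, and 4.28 in cluster 13 after DMSO. Hoxa3 had 4.34 in cluster 3 and 3.36 in cluster 0, close to even. Hoxd8 was the exception among abundant members, with 13.7 CPM in cluster 1 (316 Isx-9 cells, led by Clu and Ly6c1), 8.12 in cluster 3 and 1.79 in cluster 0. Col1a1 was also highest in cluster 1 among Isx-9 clusters, at 15.1 CPM; its part in Hoxd8 was not tested. Hoxc6 in control libraries was found mainly in cluster 13, with 2.27 after DMSO, 1.03 in the reporter and 3.83 in wild type.

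The difference between reporter and wild type was also seen inside cell clusters. In cluster 9, B-cluster genes had 2.30 CPM in the reporter and 13.9 in wild type, in cluster 13 64.9 and 554, and in enterocyte-like cluster 16 2.07 and 44.6. Hoxa7 had 1.25 in cluster 9 of the reporter and 0 in that of wild type, and 6.93 and 0.451 in cluster 13. Cluster 11, led by Xist and held mostly by wild type, had 76.2 CPM of B-cluster genes in the reporter and 264 in wild type. In wild-type cluster 11 Gata4 stood at 3.47 CPM, against 22.2 in wild-type cluster 9.

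**Figure D4:**
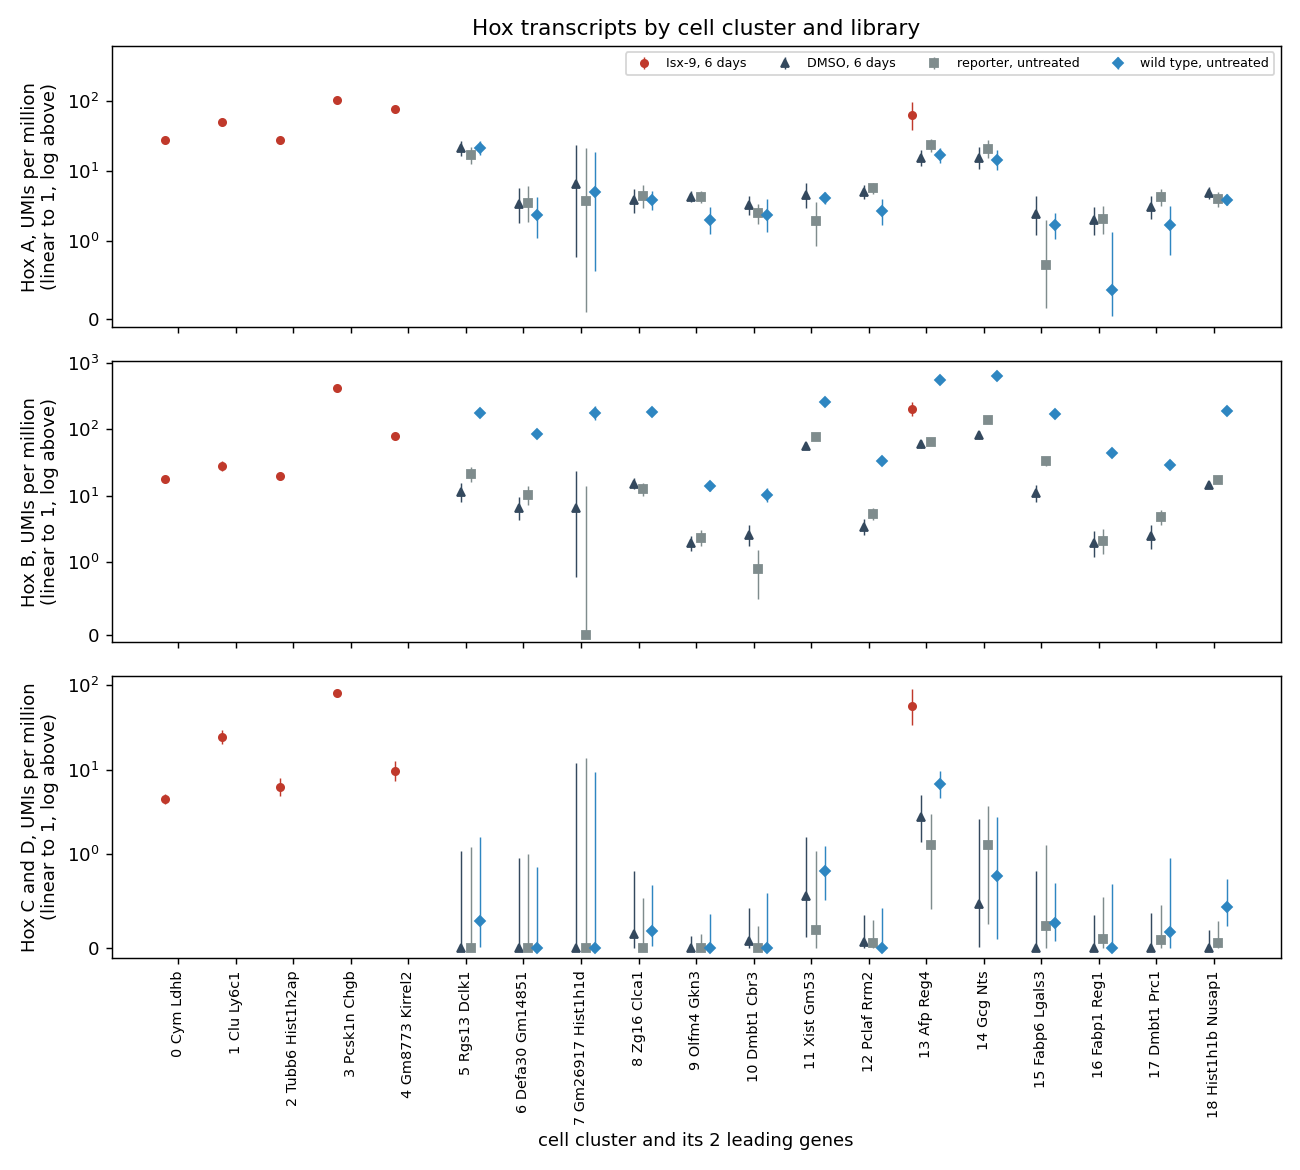
CPM of the A cluster, the B cluster and the C and D clusters together (vertical axes, linear to 1 and logarithmic above) in each cell cluster and library with at least 50 cells, with exact 95% intervals; the horizontal axis gives each cell cluster with its leading genes. Isx-9 cells fill clusters 0 to 4, enteroendocrine-like clusters 3, 13 and 14 are the highest for B-cluster genes, except that cluster 11 of the untreated reporter lies above its cluster 13, and C and D genes are near 0 in most control clusters.

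Partners and regulators of Hox genes were compared from lists chosen for their known roles. Of 11 TALE cofactor genes tested in stem cells at 6 hours, 7 rose and 0 fell, against 27.3% and 20% of all genes. Meis3 had 339 and 285 counts after Isx-9 and 15 and 6 counts after DMSO, a log2 fold change of 4.75 (SE 0.36, edgeR adjusted p = 2.02e-06). Pbx4 had 130 and 148 counts after Isx-9 and 25 and 10 counts after DMSO, a log2 fold change of 2.86. Meis1 and Pknox2 entered the test only through the Isx-9 libraries. Of tested genes with 0 DMSO counts, and of those with 1 to 3, 100% rose, so their part of the 7 was fixed in advance. Meis1 had 30 and 17 counts after Isx-9 and 0 and 1 after DMSO, and Pknox2 62 and 18 counts after Isx-9 and 0 and 0 after DMSO. Both groups were apart in each of these genes, and of these calls that of Meis1 ended without Isx-9 replicate 1 (edgeR adjusted p = 0.0519). After 6 days, 7 of 11 TALE genes were at least 2-fold higher after Isx-9 and 0 lower, against 36.2% and 4.92% of all genes, and these shares are the background of each list that follows. Meis3 had 19.9 CPM after Isx-9 and 0.748 after DMSO, a ratio of 26.7 (21.7 to 33.1), and Meis2 had 20.4 and 3.38, a ratio of 6.04 (5.44 to 6.71). Meis1 had 429 UMIs after Isx-9 and was not listed after DMSO, like Pknox2, so both count as higher through the floor of 3 UMIs.

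Of 21 Hox regulators tested at 6 hours, 7 rose and 5 fell, close to the 27.3% and 20% of all genes. Without Isx-9 replicate 1 these numbers were 4 and 3, with no filter 4 and 4, and with library size alone 7 and 3. Gdf11, a secreted factor that starts posterior Hox expression in the mouse trunk, had 494 and 434 counts after Isx-9 and 44 and 36 counts after DMSO, a log2 fold change of 3.41 (SE 0.22, edgeR adjusted p = 6.6e-07). Cdx1 had 1803 and 2049 counts after Isx-9 and 2768 and 2826 counts after DMSO, a log2 fold change of -0.67. Cbx6, a Polycomb subunit, rose by 0.74 on the log2 scale, and Kmt2b, a histone methyltransferase, fell by 0.63. Gdf11 had the largest change of the list. At 6 days Gdf11 had 25.5 CPM after Isx-9 and 1.34 after DMSO, a ratio of 19.1 (16.3 to 22.4), and Cdx1 had 52.7 and 116, a ratio of 0.453 (0.440 to 0.467). Of the 21 compared 4 were 2-fold higher and 1 lower.

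Of 14 retinoic acid genes tested at 6 hours, 8 rose and 4 fell, against 27.3% and 20% of all genes. Aldh1a2, an enzyme that makes retinoic acid, had 130 and 77 counts after Isx-9 and 0 and 0 after DMSO, at least 63.2-fold higher. Crabp1, a retinoic acid binding protein, had 129 and 98 counts after Isx-9 and 0 and 0 after DMSO, at least 69.3-fold higher. Aldh1a3, a related enzyme, had 165 and 143 counts after Isx-9 and 1 and 2 counts after DMSO. These 3 had the largest changes of the list. Aldh1a2 and Crabp1 belong to the genes with 0 DMSO counts and Aldh1a3 to those with 1 to 3, all of which rose when tested. At 6 days 9 of 15 were 2-fold higher and 1 lower. Members not listed after DMSO entered at the floor of 3 UMIs, so their part of the 9 was fixed in advance.

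Non-coding and antisense genes of the Hox clusters moved with the coding ones in single cells. At 6 days 6 of 6 compared were 2-fold higher after Isx-9. Hotairm1, a long non-coding RNA of the A cluster, had 14.7 CPM after Isx-9 and 1.27 after DMSO, a ratio of 11.6 (9.83 to 13.7), and Hoxb5os had 6.38 and 0.110, a ratio of 57.9 (34.3 to 106). In bulk 1 of 3 tested, Hoxaas3, rose, with 44 and 55 counts after Isx-9 and 10 and 17 counts after DMSO (edgeR adjusted p = 0.0168). Its call ended without Isx-9 replicate 1 (0.0662), without Isx-9 replicate 2 (0.137) and without DMSO replicate 1 (0.0717). The bulk kit does not mark the strand, and 20 of 39 Hox genes overlap another gene in RefSeq, so reads of such pairs cannot be told apart there. The bulk genes that rose, Hoxa7, Hoxa9, Hoxb13, Hoxc6 and Hoxd13, overlap none.

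Genes that flank the Hox clusters were compared as well. At 6 hours 1 of 11 tested rose (Snx10, by 0.75 on the log2 scale) and 4 fell, among them Calcoco1 and Hibadh, against 27.3% and 20% of all genes. Without Isx-9 replicate 1, 2 rose and 1 fell, and 2 fell without Isx-9 replicate 2 or without DMSO replicate 1. In DESeq2 and without DMSO replicate 2, 3 rose and 3 fell, and 2 rose with RLE factors, library size alone, no filter, the replicate block or without DMSO replicate 1. The call of Calcoco1 ended without Isx-9 replicate 1, without Isx-9 replicate 2 and without DMSO replicate 1 (edgeR adjusted p = 0.0776, 0.0634 and 0.0530). Evx1, a homeobox gene at the posterior end of the A cluster, had 9 and 22 counts after Isx-9 and 0 and 0 after DMSO, too few to test. At 6 days 6 of 15 were 2-fold higher after Isx-9 and 0 lower, with Skap1, beside the B cluster, at 7.92 and 0.126 CPM, a ratio of 62.9 (38.5 to 111). Neighbours not listed after DMSO entered at the floor of 3 UMIs, so their part of the 6 was fixed in advance.

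Genes of intestinal regions did not move as a block with Isx-9. At 6 hours 3 of 8 distal genes rose (Bex1, Fgf15 and Slc10a2), 2 of 10 proximal genes rose and 1 fell, and Gata4 fell by 0.27 on the log2 scale, against 27.3% and 20% of all genes. The call of Gata4 ended with library size alone (edgeR adjusted p = 0.182), with no filter (0.0776), without Isx-9 replicate 1 (0.267) and without DMSO replicate 2 (0.0913). That of Slc10a2 ended with no filter (0.156), without Isx-9 replicate 2 (0.475) and without DMSO replicate 1 (0.134). The number of proximal genes that fell was 3 without Isx-9 replicate 2 or without DMSO replicate 1, and 2 with the replicate block. At 6 days 6 of 10 distal and 5 of 10 proximal genes were 2-fold lower after Isx-9, and 1 of each list was higher. Fabp6 had 0.408 CPM after Isx-9 and 8.14 after DMSO, and Gata4 had 26.2 and 26.5, a ratio of 0.989 (0.941 to 1.04). Fabp6 and other members of these lists belong to enterocytes, whose markers were also lower, at 70.2 CPM after Isx-9 and 1091 after DMSO. The part of that difference in the region lists was not tested.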

How the data were processed

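The bulk files hold whole-number read counts per gene that the authors deposited, and list genes with a count in at least 1 of the 4 libraries. The single-cell matrices hold a raw UMI count for each gene in each cell, also as deposited. The authors also deposited a bulk table with log2 fold changes, their standard errors and adjusted p-values. Per the submitters' processing notes, the tools named were Trim Galore 0.6.4, HISAT2 with no version named, HTSeq 0.12.4, DESeq2 1.24.0, Cell Ranger 3.1.0 and Seurat 3.1.5, with build GRCm38. How strand was handled in counting was not given in the sources used here. All 6 ATAC-seq samples were not analysed here.

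Bulk libraries held 19025875 and 19431905 counts after Isx-9 and 19487264 and 18909542 after DMSO. They were filtered with filterByExpr, scaled by TMM (CPM likewise, computed here from the deposited counts) and tested with edgeR 4.0.16 in R 4.3.3 (quasi-likelihood F test, 2 against 2, 2-sided). P-values were adjusted by Benjamini-Hochberg over all tested genes, with a threshold of 0.05. The test was tried on simulated data first. DESeq2 1.42.0, other scalings, no filter, a replicate block and leaving out each library were alternatives.

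Single-cell sums of kept cells held 112762457 UMIs after Isx-9, 127088170 after DMSO, 129967312 in the reporter and 135743715 in wild type. A gene counted as higher or lower at 2-fold with at least 20 UMIs over both libraries. Library sums include called doublets, and cell clusters leave them out. Clusters came from scanpy 1.11.5 (2000 variable genes without Hox genes, 30 components, 15 neighbours, Leiden resolution 1, no batch correction); Python 3.11.15 was used. A cluster was called by a cell type only from listed markers.

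Named Hox genes passed the bulk test or had at least 50 UMIs over the 4 libraries; others are given by number. Up to 4 genes of each related list are named, largest bulk changes first; others were named for their known roles. A few genes that these rules would name are not reported here. The family, lists and tests were chosen with earlier results of these data known. Promoter windows and positions are from RefSeq on GRCm38.p6.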

Additional observations from a re-analysis of the deposited data

How the results depend on the processing

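The number of Hox genes that rose in bulk was 5 with DESeq2, RLE factors and library size alone, 4 with no filter on low counts and 4 with the replicate block, and 3 to 7 when 1 library was left out, the lowest without Isx-9 replicate 1; the cause was not tested. None fell under any of these settings (edgeR and DESeq2). DESeq2 kept 4 of the 5 and added Hoxd8, and the fit with no filter kept 3 and added Hoxd8. Hoxb13, Hoxc6 and Hoxd13 passed under every setting that kept all 4 libraries. All 3 had 0 DMSO counts, and 100% of the 461 tested genes of that kind rose in the main fit. Their passing is therefore no measure of how firm these calls are. The replicate block, which ended the call of Hoxa9 (adjusted p = 0.0508), ended no other Hox call. Same-numbered libraries had deviations that correlated at 0.011 in both pairs, so the numbers were not taken as pairs. The related lists had 31 members that rose and 15 that fell. Leaving out 1 library gave 27 to 31 that rose and 8 to 14 that fell, the lowest without Isx-9 replicate 1. Leaving out 1 library, the bulk log2 fold change of Hoxa3 ranged over -0.059 to 0.19, that of Hoxb3 over -0.56 to 0.36 and that of Hoxb4 over -0.25 to 0.48, so each changed sign, and that of Hoxb3 was 0.083 with library size alone. None of these 3 passed the test. In single cells, 31 Hox genes were 2-fold higher after Isx-9 over all deposited cells and at 3000 or more UMIs. Genes not listed after DMSO, fixed as higher by the floor, are among these. The number was 26 by the share of cells with a UMI after thinning, with such genes again among them. Between reporter and wild type that share gave 2 higher and 8 lower in place of 3 and 11. Restricting to cells with Y-linked and no Xist UMIs, chosen after seeing the data, moved 7 of 16 member ratios beyond their interval, all of the B cluster, and reversed none that was called. With doublets kept, the Isx-9 cell cluster with the most Chgb had 617 CPM of Hox genes instead of 611, and that with the most Cym 87.0 instead of 49.6. Low counts limit Hox genes in bulk, where 16 of 29 could not be tested.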
